A study of Mus musculus and Homo sapiens with 10 samples.

Results

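The genes described here are 10 genes that detect or act on double-stranded RNA (dsRNA) in the cytoplasm or endosome, or that carry the alarm onward: Samd9l, Ddx60, Ifih1, Ddx58, Mavs, Tlr3, Eif2ak2, Adar, Irf3 and Isg15. They were taken by symbol from the tables of gene expression, where all 10 were present among 25899 mouse genes and 10 of 10 orthologs among 35720 human genes. The set was chosen by the mESC values in the vitC and control libraries, in which Samd9l and Ddx60 were higher after vitamin C (vitC), with the other 8 as the sensors and signalling genes to set beside them. The mESC comparison of vitC with control is therefore given for the members as a description, with no test.

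RNA-seq was carried out on the established cell lines E14, mouse embryonic stem cells (mESCs) grown in 2i media, and H9, human embryonic stem cells (hESCs) kept in the primed state. The 4 groups were 4 untreated mESC cultures, 4 mESC cultures given vitC at 100 µg/ml for 24 h, and 1 untreated and 1 vitC-treated hESC culture with the same dose and time. The mESC media of both groups contained LIF, an ERK pathway inhibitor and a GSK3 inhibitor. Libraries of the same replicate number, 1 of each group, come from cultures with 1 shared label, and replicates 1 and 2 (culture labels 10 and 11) form a separate set from replicates 3 and 4 (labels starting with 35). The labels do not say whether the cultures were grown apart from the start, so that p-values measure the spread between these libraries.

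The mESC libraries held between 3354852 and 6921305 gene reads, recovered from the deposited log2-like values, and the hESC libraries 15367652 and 17188555. Stem cell markers matched the labels, with 8 of 8 markers read in all 8 mESC libraries (Pou5f1 at 783 to 1224 reads per 1000000 gene reads of the library, RPM) and 6 of 6 primed markers in both hESC libraries. Markers of immune cells were low or absent: Ptprc, which marks all white blood cells, had no read in any mESC library, and the 6 immune markers summed to 6.68 to 11.9 RPM in controls and 7.17 to 10.1 with vitC. Fibroblast markers summed to 6.55 to 17.3 and 10.8 to 14.5 RPM, and endoderm markers to 1.56 to 2.75 and 0.843 to 3.17.

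Long dsRNA in a cell is read as a sign of viral infection, and it can also come from the cell's own repeats. In the cytoplasm it is bound by the RIG-I-like helicases, RIG-I (the product of Ddx58) and MDA5 (Ifih1), which pass the signal to the mitochondrial adaptor MAVS and from there to the transcription factor IRF3 and the type I interferon genes. TLR3 signals from the endosome through another adaptor, PKR (Eif2ak2) stops translation by phosphorylating eIF2α, and ADAR1 (Adar) edits adenosines in dsRNA so that the sensors ignore it. Interferon then acts back on cells through JAK-STAT signalling and the interferon-stimulated response element, a DNA motif in the promoters of genes such as Isg15, a ubiquitin-like protein. Ddx60, a helicase, and Samd9l, an antiviral and growth-restraining protein, are known as interferon-stimulated genes, and pluripotent stem cells are known for a weak interferon response.

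The promoters are shown first. Of the members that were higher with vitC, Ddx60 had the motif that the pathway is known for, whereas Samd9l and Ddx58 had none in the window searched. Whether the motif has a part in the differences was not tested. The core of the interferon-stimulated response element (GAAANNGAA, searched on both strands) was looked for in the 250 bases before each RefSeq start in the mouse build GRCm38.p6, where it occurred in 7.13% of 32851 such windows. It was found for 4 of the 10 genes. Isg15 had 3 overlapping copies, starting 78, 72 and 66 bases before the transcription start. Ddx60 had 2 copies, 53 and 19 bases before its start, Ifih1 had 1 at 112 bases, and Adar had 1 at 249 bases, in only the last of its 3 annotated promoters. Samd9l, Ddx58, Mavs, Tlr3, Eif2ak2 and Irf3 had none in this window. The windows also differed in CG dinucleotides, the sites of DNA methylation: Samd9l had 0, Isg15 4, Ddx60 5 and Ddx58 12, against a median of 6 over all windows. Shown here 5′ to 3′ on the gene's own strand are the windows of Samd9l (chr6:3399572-3399821, minus strand), Ddx58 (chr4:40239826-40240075, minus strand) and Isg15 (chr4:156200819-156201068, minus strand), as a gene that was higher and lacks the motif, a sensor that was slightly higher and lacks it, and a gene that carries it and was almost unread. Ddx60, which was higher and carries 2 copies, is described above in words only, so these windows do not show every combination. Capitals mark the motif.
Samd9l: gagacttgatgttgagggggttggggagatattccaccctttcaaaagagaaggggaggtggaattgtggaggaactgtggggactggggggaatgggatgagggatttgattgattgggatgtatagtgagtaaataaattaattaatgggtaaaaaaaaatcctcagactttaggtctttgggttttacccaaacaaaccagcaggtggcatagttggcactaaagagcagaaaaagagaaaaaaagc
Ddx58: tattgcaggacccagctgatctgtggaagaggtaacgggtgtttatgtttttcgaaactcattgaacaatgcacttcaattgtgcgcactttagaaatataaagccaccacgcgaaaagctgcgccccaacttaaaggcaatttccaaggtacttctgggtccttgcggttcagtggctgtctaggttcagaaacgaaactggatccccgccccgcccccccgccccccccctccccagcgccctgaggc
Isg15: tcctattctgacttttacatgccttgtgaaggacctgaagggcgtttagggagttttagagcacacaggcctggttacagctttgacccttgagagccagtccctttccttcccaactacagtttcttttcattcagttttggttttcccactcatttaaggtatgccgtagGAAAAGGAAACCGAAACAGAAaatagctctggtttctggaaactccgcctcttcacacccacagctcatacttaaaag
The first window holds neither a capital nor a CG, whereas the last packs its 3 copies into 1 run of capitals. Such a match is a description of letters and not a mapped binding site.

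Samd9l was the member whose deposited values differed most between the groups, whereas by the ratio of mean RPM Ddx60, with far fewer reads, differed more (5.97 against 3.57 for Samd9l; Samd9l lies on the minus strand of mouse chromosome 6, 3372257 to 3399572, GRCm38). In controls it had 12, 24, 25 and 41 reads in replicates 1 to 4, which is 1.95, 4.63, 5.57 and 5.92 RPM. In the vitC cultures it had 73, 95, 57 and 83 reads, or 13.6, 16.3, 17.0 and 17.5 RPM. Every vitC library lay above every control library, and the lowest vitC value was higher than the highest control value by 0.46 on the deposited log2-like scale. Mean levels were 4.52 ± 1.80 and 16.1 ± 1.73 RPM (SD, n = 4 each), a ratio of 3.57. The ratio within a culture pair was 6.99, 3.52, 3.05 and 2.95, so that replicate 1, with the lowest control, had the largest ratio, and on the deposited scale the vitC cultures lay closer together (SD 0.08) than the controls (SD 0.18). The difference of the deposited values was 0.70 (standard error 0.09), which is smaller than the log2 fold change of 1.85 (standard error 0.28) fitted to the recovered reads by edgeR, because the transformation behind the deposited values damps differences at low read numbers. Standard errors here and below are from fits that leave out the culture pairing. By the deposited difference Samd9l stood in place 24 of the 14631 genes tested.

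Ddx60 (mouse chromosome 8, 61928087 to 62038244, plus strand) was near the limit of detection without vitC. It had 7, 3, 0 and 4 reads in the controls, or 1.14, 0.578, 0 and 0.578 RPM. With vitC it had 20, 34, 11 and 4 reads, or 3.73, 5.83, 3.28 and 0.843 RPM. All 4 pairs were higher with vitC, but the groups overlapped, as the vitC library of replicate 4 lay below the control of replicate 1. The pair ratio was 3.28 (exact 95% counting interval 1.33 to 9.19) in replicate 1, 10.1 (3.17 to 51.4) in replicate 2 and 1.46 (0.272 to 7.83) in replicate 4. In replicate 3, whose control had no read, the vitC level was 4.91 times that of a floor of 3 control reads. That figure allows for no counting error in the vitC reads, unlike the intervals above, and is not a lower limit. These ratios rest on 14 control and 69 vitC reads in all. The difference of the deposited values was 0.43 (standard error 0.13), and the means were 0.573 ± 0.464 and 3.42 ± 2.05 RPM (SD, n = 4 each).

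Ddx58, which encodes RIG-I, was the most abundant member per length and the third that was higher in all 4 pairs (chromosome 4, 40203773 to 40239828, minus strand). The controls were at 106, 101, 141 and 113 RPM and the vitC cultures at 132, 129, 159 and 135. The groups overlapped only through the control of replicate 3, which lay above 3 of the 4 vitC libraries and below its own partner. Ratios within pairs were 1.25, 1.28, 1.13 and 1.20, much smaller but more even than those of Ddx60, and the deposited difference was 0.24 (standard error 0.09). Every library held 522 to 783 of its reads.

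Of the other sensors, Ifih1 and Tlr3 were hardly read, as was the effector Isg15. Ifih1, which encodes MDA5, had 1 read in 1 vitC library and none in the other 7. Tlr3 had 3 and 1 reads in the controls of replicates 3 and 4 and 3 reads in the vitC culture of replicate 1. Isg15 had 2 reads in the control of replicate 4 and none in any vitC library. No fold is given for these 3 genes, since 3 reads over the 42054342 reads of the 8 libraries correspond to 0.0713 RPM, and they did not pass the filter on low values. They are on mouse chromosomes 2 (62595798 to 62646255), 8 (45395665 to 45411080) and 4 (156199424 to 156200818), all on the minus strand.

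**Figure D1:**
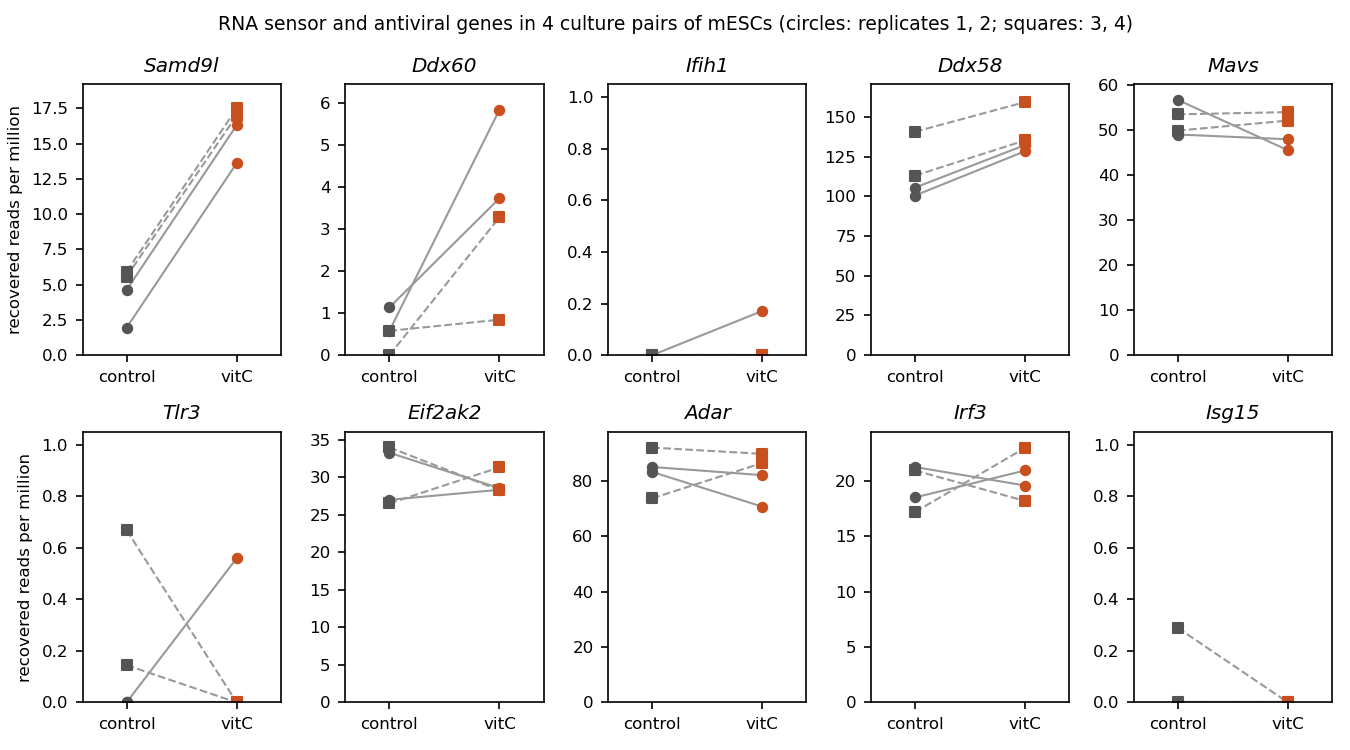
RPM of recovered reads (vertical axes, each starting at 0, with its own scale) of the 10 members in control and vitC mESC cultures; each line joins the libraries of 1 culture pair, with circles for replicates 1 and 2 and squares for replicates 3 and 4. Lines rise in all 4 pairs for Samd9l, Ddx60 and Ddx58, cross for Mavs, Eif2ak2, Adar and Irf3, and lie at or near 0 for Ifih1, Tlr3 and Isg15.

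The signalling and effector genes with many reads differed little between the groups. Mavs, the mitochondrial adaptor of the RIG-I-like helicases, was at 49.0, 56.7, 53.5 and 49.8 RPM in controls and at 47.9, 45.5, 54.0 and 52.1 with vitC, higher in 2 of 4 pairs. Irf3, the transcription factor below it, was at 21.2, 18.5, 20.9 and 17.2 in controls and at 19.6, 20.9, 18.2 and 23.0 with vitC, also higher in 2 pairs. Neither gene kept 1 direction across the cultures, and their deposited differences were -0.04 and 0.04 (standard error 0.06 each). Eif2ak2, which encodes PKR, was at 33.2, 27.0, 26.5 and 34.0 RPM in controls and at 28.5, 28.3, 31.3 and 28.2 with vitC. Adar was at 83.2, 85.0, 92.0 and 73.7 in controls and at 70.7, 82.0, 89.7 and 86.4 with vitC, lower in 3 of 4 pairs. For both, the difference between the group means, -0.02 and -0.01, was smaller than its standard error of 0.07 and 0.08.

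Of the 10 members, 7 passed the filter on low values. In the fit of all genes by limma, in which 0.342% of 14631 tested genes were past an adjusted p of 0.05, 1 of these 7, Samd9l, was past it. With the replicate number as a block, where 10.8% of the tested genes were past it, Samd9l, Ddx60 and Ddx58 were. Higher in 4 of 4 pairs were 3 of the 7 members, beside 15.4% of tested genes, and 1 had all vitC libraries above all controls, beside 3.31%. These counts only restate the choice of the members, which used this contrast, and nothing is read from them. In these bulk samples, more RNA per cell and more cells with the RNA cannot be told apart.

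Levels can be compared between genes only per length of exon, and on that scale the members covered a wide range. In control mESCs, Ddx58 was at 29.7 ± 4.63, Mavs at 16.9 ± 1.14, Adar at 13.9 ± 1.26, Irf3 at 8.89 ± 0.892 and Eif2ak2 at 7.00 ± 0.922 reads per kilobase of exon in RPM (RPKM) (SD, n = 4 each). Samd9l followed at 0.847 ± 0.337, and Isg15, Ddx60, Tlr3 and Ifih1 lay at 0.0956, 0.0874, 0.0453 and 0. From Ddx58 down to Irf3, each gene's lowest control library lay above the highest of the next, whereas Irf3 (7.85 to 9.71) and Eif2ak2 (6.15 to 7.87) overlapped. The lowest control of Samd9l, 0.365, was below the only control with Isg15 reads, 0.382, and the 4 lowest genes cannot be ordered, as each was at 0 in at least 1 control. With vitC, Samd9l reached 3.02 ± 0.325 and was still below each library of Eif2ak2 (6.55 to 7.26), whereas Ddx60 was at 0.522 ± 0.313. Of the cytoplasmic dsRNA helicases, RNA of RIG-I was read in every library and RNA of MDA5 in 1.

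**Figure D2:**
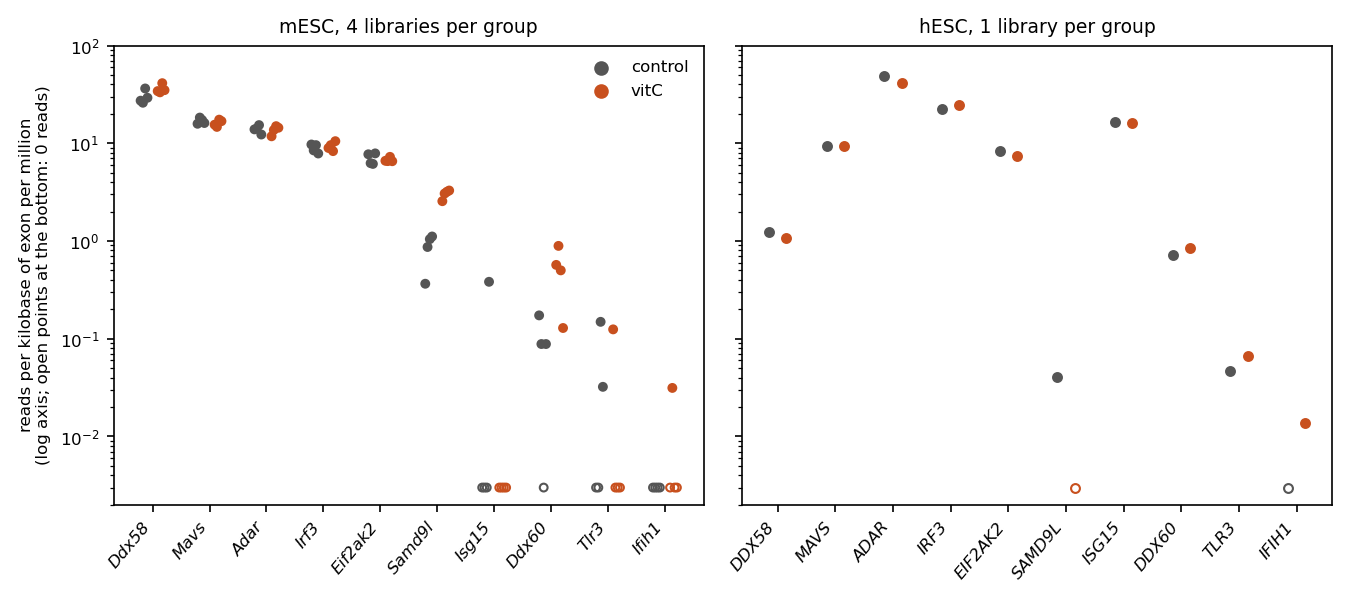
RPKM, reads per kilobase of exon in RPM (log axis), for the 10 members, ordered by the mean in control mESCs, in mESC libraries (left, 4 per group) and hESC libraries (right, 1 per group); grey is control, orange is vitC, and open points at the bottom stand for 0 reads. Ddx58 leads in mESCs at 26.0 to 36.3 in controls but not in hESCs, where ADAR leads at 49.1, and ISG15 is read in hESCs at 16.5.

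The fixed difference between the culture sets was then tested, since the choice of members did not use it. In the control libraries, 16.9% of 14631 genes differed between replicates 3 and 4 and replicates 1 and 2 by limma, and none of the 7 members did, with 1 of them, Ddx58, at an unadjusted p under 0.05. That background rests on single libraries: 242 genes were called without control replicate 3 and 0 without control replicate 1, 2 or 4. Ddx58 was higher in replicates 3 and 4 by 0.23 (standard error 0.09, limma adjusted p = 0.115), and Samd9l likewise by 0.23 (standard error 0.10, adjusted p = 0.157), with controls at 5.57 and 5.92 against 1.95 and 4.63 RPM. Ddx60 went the other way, by -0.21 (standard error 0.11, adjusted p = 0.225). With single control libraries left out, these differences ranged from 0.100 to 0.360 for Ddx58, from 0.0866 to 0.375 for Samd9l and from -0.355 to -0.0603 for Ddx60. The differences of Mavs, Eif2ak2, Adar and Irf3 lay between -0.04 and -0.01, with adjusted p-values from 0.782 to 0.977. Among genes with reads in all 8 libraries, Ddx58 came under the threshold (limma adjusted p = 0.0447). The sets also differed in ribosomal RNA, which took 42.0 to 51.5% of the repeat counts in replicates 1 and 2 and 60.0 to 63.1% in replicates 3 and 4, and its part in these differences was not tested.

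Whether vitC acted differently in the 2 culture sets was tested as an interaction, which is independent of the average effect that chose the members. No gene passed by limma (0.0% of 14631 tested, 601 at an unadjusted p under 0.05), and edgeR and DESeq2 on the recovered reads also called 0 genes. None of the 7 members was at an unadjusted p under 0.05. The vitC difference of Samd9l was 0.77 in replicates 1 and 2 and 0.63 in replicates 3 and 4, and the difference between them was -0.14 (standard error 0.13, limma adjusted p = 1.00). That of Ddx60 was 0.48 and 0.38 (interaction -0.10, standard error 0.17), and that of Ddx58 was 0.29 and 0.19 (interaction -0.10, standard error 0.12). The interaction of Adar was 0.18 (standard error 0.12, 0.0591 to 0.304 with single libraries left out) and that of Mavs 0.15 (standard error 0.10, 0.0690 to 0.221). That of Adar came from a difference of -0.10 in replicates 1 and 2 and 0.08 in replicates 3 and 4. At these standard errors interactions of the sizes measured were not detectable.

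The other genes of the pathway were read from 5 lists of 166 genes that leave out the 10 members. Of these, 164 were in the mESC table, 28 had no read in any library and 124 were tested. By limma, 0 of the 124 genes were past the threshold with vitC, and at an unadjusted p under 0.05 there were 1 higher and 5 lower. edgeR called 0 of them as well. With the replicate block, 4 rose and 4 fell, 8 of 124 beside the 10.8% of all tested genes given above. Block calls that are named were chosen after their values were seen.

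Sensors and adaptors other than the members did not move past the threshold in either fit. Of 33 tested, the median difference was -0.01 and the range -0.19 to 0.13, beside a median of -0.00198 over all tested genes. The highest difference was that of Fadd, a death-domain adaptor, 0.13 (standard error 0.11, limma adjusted p = 0.855), and the lowest that of Zbp1, a sensor of Z-form nucleic acid, -0.19 (standard error 0.07, adjusted p = 0.520). Zbp1 had 45 control and 17 vitC reads in all. Abundant helicases that also bind RNA were read throughout, such as Ddx3x at 934 ± 108 and 868 ± 67.1 RPM (SD, n = 4 each). Dhx58, the regulatory relative of the RIG-I-like helicases, had 16 and 11 reads, and Irf7, the interferon-induced partner of Irf3, had 1 and 0.

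The interferon genes themselves were not read: Ifnb1, Ifna2, Ifna4, Ifne and Ifng had no read in any of the 8. The receptor and JAK-STAT genes were read, with 0 of 18 tested genes past the threshold in either fit and a median difference of -0.000574. Ifnar1, a chain of the type I interferon receptor, was at 69.9 ± 8.22 in controls and 73.1 ± 5.21 RPM with vitC (SD, n = 4 each). Socs3, a feedback inhibitor, had the highest difference of the list, 0.12 (standard error 0.07, limma adjusted p = 0.775).

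Among interferon-stimulated effectors, 45 of 70 were tested, with a median difference of -0.04. Without the block 0 genes were past the threshold, and with it 0 rose and 3 fell, beside 10.8% of all tested genes past it with the block, 931 higher and 650 lower. The 3 were Xaf1, a pro-apoptotic protein (58.2 ± 6.83 to 46.5 ± 4.81 RPM, SD, n = 4 each, difference -0.22, limma adjusted p = 0.519 without and 0.00464 with the block), Irgm1, an immunity-related GTPase (difference -0.22, adjusted p = 0.529 and 0.0195), and Ifitm1, a membrane protein that restricts viral entry (difference -0.16, adjusted p = 0.641 and 0.0141). Each was lower in 4 of 4 pairs. Among genes of the list read in all 8 libraries, Irgm1 had the lowest difference and Ifi27l1, listed under its newer name Ifi27, the highest, 0.15 (standard error 0.08, adjusted p = 0.733). Of the list, 15 genes had no read in any library, among them the classic interferon targets Ifit1, Ifit3, Mx2, Cxcl10 and Ccl5. Rsad2, which encodes viperin, had 34 control and 12 vitC reads, whereas Ube2l6 had 11 and 42 and Trim30a 0 and 17. Ube2l6 had the highest difference of the list, 0.21 (standard error 0.16, limma adjusted p = 0.833), and was higher in 2 of 4 pairs. Oas1a was well read, at 37.2 ± 2.03 and 40.3 ± 6.01 RPM (SD, n = 4 each). At an unadjusted limma p under 0.05 the list had 0 genes higher and 4 lower.

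In the list of RNA editing, cleavage and decay genes, 0 of 22 were past the threshold without the block, and with it 4 rose and 1 fell. Ttc37, a subunit of the SKI complex of the exosome, was at 109 ± 2.74 and 123 ± 1.44 RPM (SD, n = 4 each) and had the largest rise, 0.16 (standard error 0.05, limma adjusted p = 0.432 without and 0.0177 with the block). Drosha, the nuclear RNase of microRNA processing, differed by 0.11 (adjusted p = 0.924 and 0.0493), and Eif2c2, which encodes Argonaute 2, by 0.13 (adjusted p = 0.883 and 0.0148). Pnpt1, the mitochondrial RNA-degrading phosphorylase, had the largest fall, -0.14 (standard error 0.07, adjusted p = 0.671 and 0.0315). Drosha and Eif2c2 were lower in the controls of replicates 3 and 4, by -0.43 and -0.35 (adjusted p = 0.00539 and 0.0272). The list of the other eIF2α kinases, the phosphatase subunits and Eif2s1, which encodes eIF2α itself, had 0 of 6 genes past the threshold in either fit. Differences ranged from -0.07 for Eif2s1 (limma adjusted p = 0.884) to 0.04 for Ppp1r15b (limma adjusted p = 0.916).

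**Figure D3:**
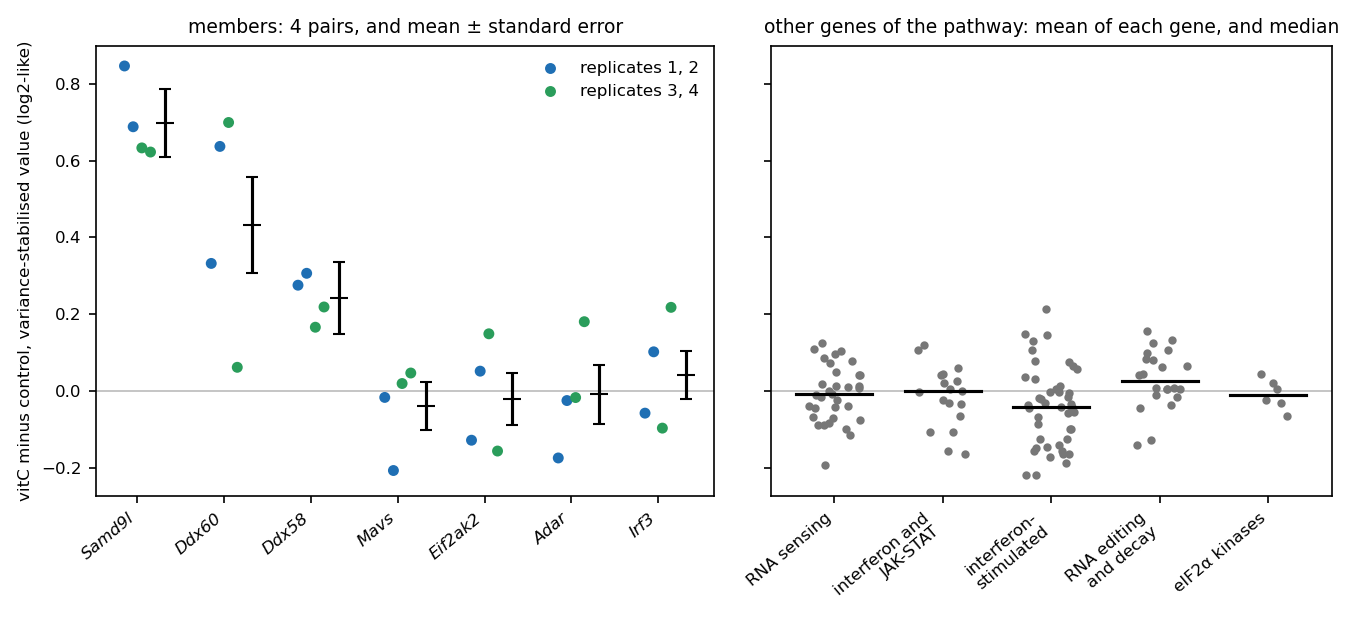
Difference between vitC and control in the deposited log2-like value (vertical axis) for the 7 members that passed the filter (left: points are culture pairs, blue for replicates 1 and 2 and green for 3 and 4, bars are the mean and its standard error) and for 124 other genes of the pathway in 5 lists (right: each point is the mean difference of 1 gene, the line is the list's median). Samd9l, at 0.70, Ddx60, at 0.43, and Ddx58, at 0.24, lie above every gene of the 5 lists, the highest of which is at 0.21. The standard errors are from the fit without the culture pairing. The choice of the members used this contrast, so nothing is read from their place.

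In hESCs the same genes were read in 1 control and 1 vitC library, so no test was made, and intervals are exact 95% limits that cover counting error only. SAMD9L had 5 reads in the control and 0 with vitC, where the upper limit was 0.215 RPM. IFIH1 had 0 and 1 reads and TLR3 had 5 and 8, so that these 3 genes were too low for a ratio. DDX60 had 75 and 97 reads, or 4.88 (3.84 to 6.12) and 5.64 (4.58 to 6.88) RPM, a log2 ratio of 0.21 (-0.24 to 0.66). A gene closely related to it, DDX60L, may share reads with it. DDX58 had 96 and 94 reads, a log2 ratio of -0.19 (-0.62 to 0.23). For both, the interval includes 0.

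The abundant human members were measured more closely. MAVS was at 110 RPM in both libraries, with 1687 and 1893 reads and a log2 ratio of 0.00 (-0.09 to 0.10). IRF3 was at 53.5 (49.9 to 57.3) and 58.9 (55.4 to 62.7), a log2 ratio of 0.14 (0.01 to 0.27). EIF2AK2 was at 85.6 (81.0 to 90.3) and 75.2 (71.2 to 79.4), a log2 ratio of -0.19 (-0.30 to -0.07). ADAR was at 384 (374 to 394) and 327 (318 to 335), a log2 ratio of -0.23 (-0.29 to -0.18). ISG15 was at 14.3 (12.5 to 16.3) and 13.9 (12.2 to 15.8), a log2 ratio of -0.04 (-0.31 to 0.23). The intervals of IRF3, EIF2AK2 and ADAR leave out 0, but with 1 library a side the spread between cultures is unknown. None of the 7 members with at least 20 reads in the 2 libraries together was past 1.5-fold, where 9.34% of 14769 such genes were.

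**Figure D4:**
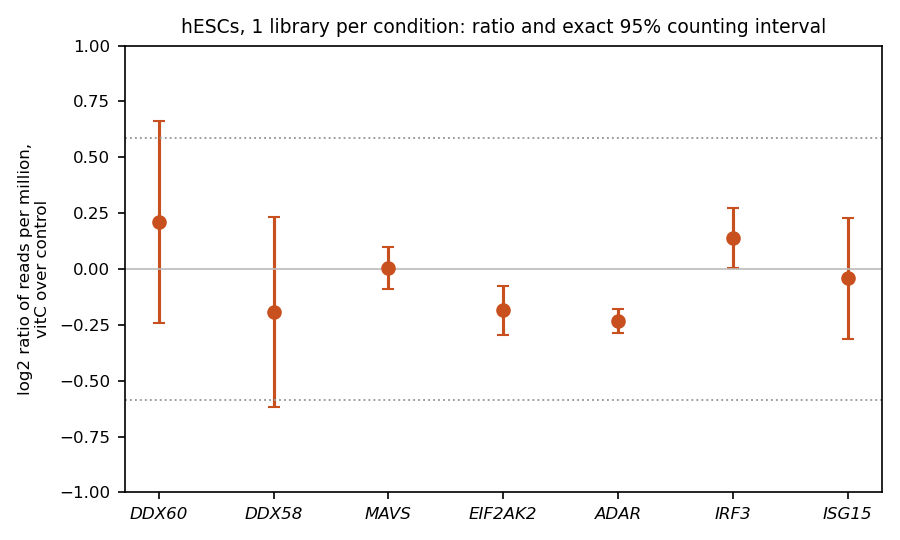
Log2 ratio of RPM in the vitC over the control hESC library (vertical axis) for the 7 members with at least 20 reads, 1 library per condition; bars are exact 95% counting intervals and dotted lines mark 1.5-fold in either direction. All 7 points lie between the dotted lines, from -0.23 for ADAR to 0.21 for DDX60.

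Per length, the members ranked differently in the 2 kinds of cells. In the hESC control ADAR was at 49.1, IRF3 at 22.3, ISG15 at 16.5, MAVS at 9.33, EIF2AK2 at 8.33, DDX58 at 1.23, DDX60 at 0.726, TLR3 at 0.0466, SAMD9L at 0.0407 and IFIH1 at 0 RPKM. DDX58 was thus sixth in hESCs with 96 reads and Ddx58 led in mESCs, whereas ISG15 had 220 reads in the hESC control and Isg15 had 2 reads in the 4 mESC controls together. Species, media, pluripotent state, library and annotated exon length differ at once between these tables and cannot be told apart. Merged exons were 3095 bases for Mavs and 11771 for MAVS, but 5470 for Ifih1 and 4199 for IFIH1. MDA5 and TLR3 were at or near 0 in both.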

How the data were processed

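RNA-seq libraries of 4 control and 4 vitC mESC cultures and of 1 control and 1 vitC hESC culture were analysed, and none was left out. The members and all gene lists were chosen with earlier results of these data known. SQuIRE (version not given in the sources used here) was used by the authors for mapping, to mm10 or hg38, and for counting. The authors deposited variance-stabilised gene values on a log2-like scale. The submitters' processing notes also name Trim Galore, HISAT2 and DESeq2. Libraries were directional, after rRNA depletion by the methods (the labels name depletion or mRNA isolation). The authors also deposited expected counts per repeat subfamily, used here only for the share of ribosomal RNA. 9 other columns of per-sample values were not used.

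Inverting the transformation, with the smallest step of a library taken as 1 read, gave whole reads for 100% of values (tolerance 0.0001 read). Levels are these recovered reads per 1000000 gene reads of the library (RPM). Limma 3.58.1 (lmFit, eBayes with a trend, R 4.3.3) took the deposited values of the 14631 genes that exceeded the table's minimum in 4 or more mESC libraries, with Benjamini-Hochberg adjustment over all of them and a threshold of 0.05. The scripts were tested on simulated data. Alternatives were the replicate block, eBayes without trend, quantile normalization, other filters, edgeR 4.0.16 and DESeq2 1.42.0 on recovered reads, each culture set alone and each library left out. The replicate numbers pair the samples: a number stands for 1 culture label, and the correlation of same-numbered libraries around their group means was 0.626 to 0.765. The main design has no term for them because the methods name none, and the standard errors given are from fits without that term.

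Named were all members and, in each list, every gene called and the largest rise and fall among genes read in all 8 libraries. List genes were matched by symbol, and 10 by RefSeq synonym. Exon lengths and coordinates are from GENCODE annotations of GRCm38 and hg38 (merged exons of basic transcripts, with DDX58 under RIGI), and promoters from RefSeq. For hESCs, Clopper-Pearson 95% limits were computed, and ratios only from 20 reads. The reads carry no molecular identifiers, so a read is not an independent molecule. Genes outside the rule were named after their values were seen, and some gene results are not reported here.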

Additional observations from a re-analysis of the deposited data

Results flagged for a closer look

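Of the members' values in each group of 4 mESC libraries, 4 had an end library farther from the others than Dixon's limit at 95% allows. Chance passes this limit in about 1 in 20 groups, a rate that does not hold where the other libraries are tied at 0 reads. Ddx58 in vitC replicate 3 was at 9.90 on the deposited log2-like scale, above the other vitC libraries, and the control of the same culture was the highest control. In the other 3 cases a single library had reads: Ifih1 at 6.29 in vitC replicate 2 (1 read), Tlr3 at 6.42 in vitC replicate 1 (3 reads) and Isg15 at 6.34 in control replicate 4 (2 reads), where the lowest value of the table, 6.13, stands for 0 reads.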

How the results depend on the processing

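Of the alternatives to limma on all 8 libraries, which called 50 genes with vitC, the replicate block gave 1581, edgeR with the block 1832, DESeq2 131, replicates 1 and 2 alone 175, replicates 3 and 4 alone 4, genes read in all 8 libraries 28, and single libraries left out 19 to 32. For the culture sets (2471 genes), no filter gave 13, DESeq2 1344 and single libraries left out 0 (control replicates 1, 2 or 4) to 242, where the lone library of a set is assumed to vary like the others. For the interaction (0 genes), the block gave 13, none a member, and no filter 66. The cause was not tested, apart from the fewer genes or libraries that some settings hold.

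Samd9l, Ddx60 and Ddx58 kept the direction of their vitC difference under every alternative that gave a value, and without single libraries Samd9l lay between 0.61 and 0.74. Nothing is read from this, as the members were chosen by the same contrast in the same libraries. All vitC libraries of Samd9l lay above all controls, so leaving libraries out could not turn its direction. edgeR without the block gave no value for Ddx60. In the culture sets, vitC libraries in place of controls turned the direction of Mavs (0.11), Eif2ak2 (0.0286) and Adar (0.15), and edgeR that of Eif2ak2 (0.000715). With single libraries left out, the difference ranged from -0.107 to 0.0457 for Mavs, -0.113 to 0.101 for Eif2ak2, -0.155 to 0.0895 for Adar and -0.110 to 0.0323 for Irf3. The interaction of Ddx60 was 0.12 by DESeq2. With single libraries left out, interactions ranged from -0.284 to 0.00451 for Samd9l, -0.276 to 0.0673 for Ddx60, -0.229 to 0.0313 for Ddx58, -0.0726 to 0.142 for Eif2ak2 and -0.0480 to 0.125 for Irf3.

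Depth limits Ddx60, Ifih1, Tlr3 and Isg15, which had 83, 1, 7 and 2 reads in all mESC libraries together.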

Other observations

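In hESCs, the 5 lists of other pathway genes held 2 of 30, 1 of 19, 5 of 27, 1 of 20 and 0 of 6 genes past 1.5-fold (sensors and adaptors, interferons and JAK-STAT, interferon-stimulated effectors, RNA editing and decay, and eIF2α kinases), beside 9.34% of all genes with at least 20 reads. The median log2 ratios of the lists were 0.02, 0.05, 0.03, 0.02 and -0.12, from 1 library a side. In the mESC controls, of 124 tested genes of the lists 4 were higher and 8 lower in replicates 3 and 4 than in replicates 1 and 2 by limma, beside 16.9% of all tested genes, and without control replicate 1, 2 or 4 no gene of the whole table was called. The largest of these differences was that of H2-K1, a class I antigen-presenting molecule (0.64, standard error 0.08, limma adjusted p = 0.00289), named after its value was seen.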
